A study of Arabidopsis thaliana with 6 samples.

Results

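CLE41 (AT3G24770) and CLE44 (AT4G13195) are a pair of Arabidopsis thaliana genes that encode precursors of the same secreted peptide, a signal from the phloem to the cambium. They were chosen by name, each through the probe set that the probe table gave to it alone, and they are 2 of the 13350 genes that had a probe set of their own among the 22810 probe sets of the Affymetrix ATH1 array. Their transcripts were measured in 3 samples of phloem exudate and 3 of phloem tissue cut out by laser microdissection and pressure catapulting (LMPC), 1 array each. Exudate is the fluid that drips from cut sieve tubes, gathered here with EDTA so that the tubes did not seal. All plants flowered under 8 h of light at 22 °C and 16 h of darkness at 16 °C, and the labels name no genotype and no plant numbers. The exudate RNA went through 2 rounds of linear amplification, whereas the LMPC RNA had 10 cycles of PCR before in vitro transcription, so amplification method and sample type cannot be told apart. The labels describe RNA extraction from exudates for the LMPC samples too, which goes against their titles, and the groups here rest on the titles. In LMPC phloem the amount of a transcript per cell and the share of the collected cells that make it cannot be told apart either. Exudate is a fluid, and its signals do not tell which cells its transcripts came from.

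CLE peptides are cut from the C-terminal end of short secreted precursors and are bound by leucine-rich repeat receptor kinases on neighbouring cells. The peptide of CLE41 and CLE44 is known as TDIF, tracheary element differentiation inhibitory factor. It leaves the phloem side of the vascular bundle, binds the receptor PXY (also called TDR) on cambium cells, keeps those cells dividing through the homeobox gene WOX4 and holds back their differentiation into xylem through GSK3-type kinases. A transcript of either gene can thus contribute the same mature peptide, while the precursors and promoters are separate.

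CLE41 was lower and CLE44 higher in exudate than in LMPC phloem. CLE41 had MAS5 signals of 16.6, 39.1 and 63.4 on exudate arrays 1, 2 and 3, against 322, 149 and 156 on LMPC arrays 1, 2 and 3. MAS5 signals are linear brightness values, 1 per probe set. Every exudate array lay below every LMPC array for this gene, the closest pair being exudate array 3 and LMPC array 2. CLE44 had signals of 86.8, 50.4 and 100.5 on exudate arrays 1, 2 and 3, against 46.8, 24.8 and 22.3 on LMPC arrays 1, 2 and 3. Every exudate array lay above every LMPC array for CLE44, but exudate array 2 and LMPC array 1 were separated by less than the spread within either group. The mean signal of CLE41 was 39.7 ± 23.4 in exudate and 209 ± 97.8 in LMPC phloem (SD, n = 3 per group throughout), so that the LMPC mean was 5.26 times the exudate mean. The mean signal of CLE44 was 79.2 ± 25.9 in exudate and 31.3 ± 13.5 in LMPC phloem, 2.53 times as high in exudate.

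**Figure D1:**
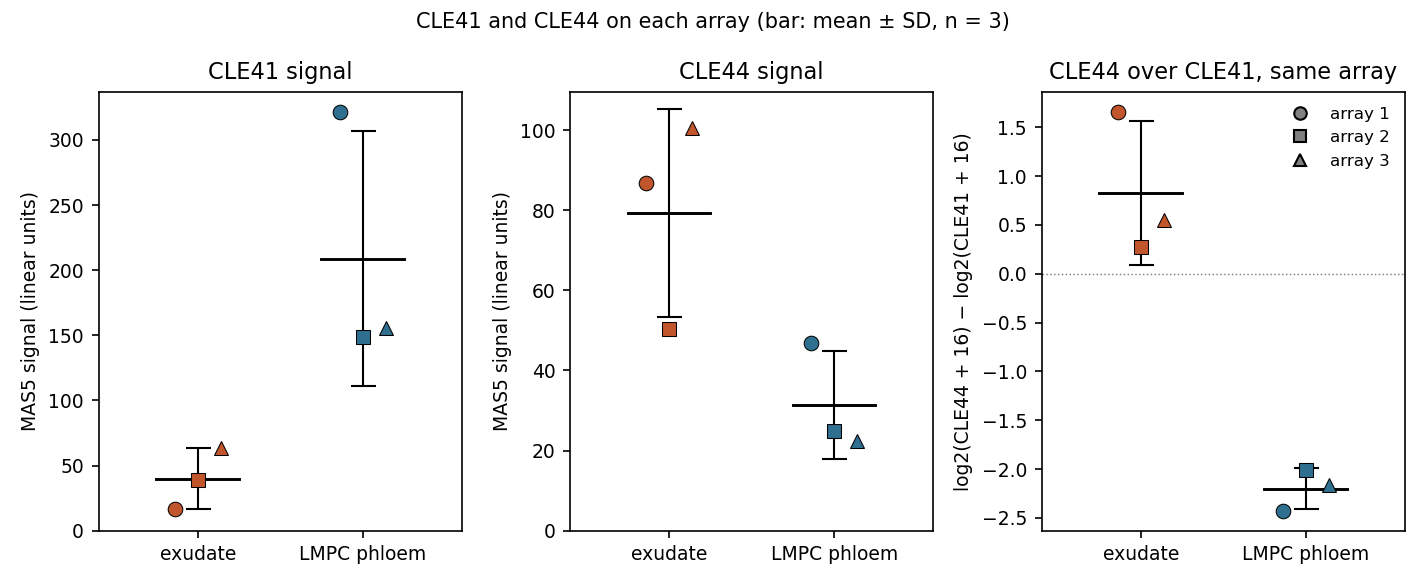
MAS5 signal (linear units, left and middle) of CLE41 and CLE44 and the within-array log2 ratio of CLE44 over CLE41 (right) in exudate and LMPC phloem. Points are arrays 1 to 3, bars are the mean ± SD (n = 3), and the groups do not overlap in any of the panels.

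The comparison asks whether the signal of each gene differed between sap and phloem tissue, and it does not measure how a pool of transcripts was divided between them. It was tested with limma across all 15320 probe sets that were not dim (above the 40th percentile of the array on at least 3 arrays), on log2(signal + 16), and differences are exudate minus LMPC phloem. CLE41 fell by 2.02 on this scale (SE 0.374, limma adjusted p = 0.0006) and CLE44 was higher by 1.01 (SE 0.332, limma adjusted p = 0.0325). Both genes stood above the 40th percentile on all 6 arrays, so neither passed the filter through one group alone. Of all tested probe sets 16.6% were called lower and 8.51% higher in exudate, and 27.8% had all exudate arrays lower and 12.1% all exudate arrays higher than the LMPC arrays. Against that background either gene on its own was 1 of many. Adding 16 to each signal understates differences of low signals, and since no label states that the samples of a group are separate plants, the p-values cover only the spread between these 6 samples, which may be technical.

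The call of CLE44 depended on single arrays. Its adjusted p in limma was 0.0918 to 0.112 when exudate array 1, exudate array 3, LMPC array 2 or LMPC array 3 was left out, and 0.0207 and 0.0217 without exudate array 2 and LMPC array 1. The difference remained positive throughout, between 0.84 and 1.25. CLE41 kept its call without any one array, with differences between -2.32 and -1.68.

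On the signals as deposited, CLE41 stood further out among the tested probe sets than CLE44. There, 371 of the 15320 tested probe sets, 2.42%, had a lower difference than CLE41, and 1168, 7.62%, had a higher difference than CLE44. Over all of them the differences had a median of -0.27. Relative to that median CLE41 stood at -1.75 and CLE44 at +1.27. After scaling to the hybridization spike-ins the order turned, with CLE41 at -1.33 and CLE44 at +1.58 from the median.

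**Figure D2:**
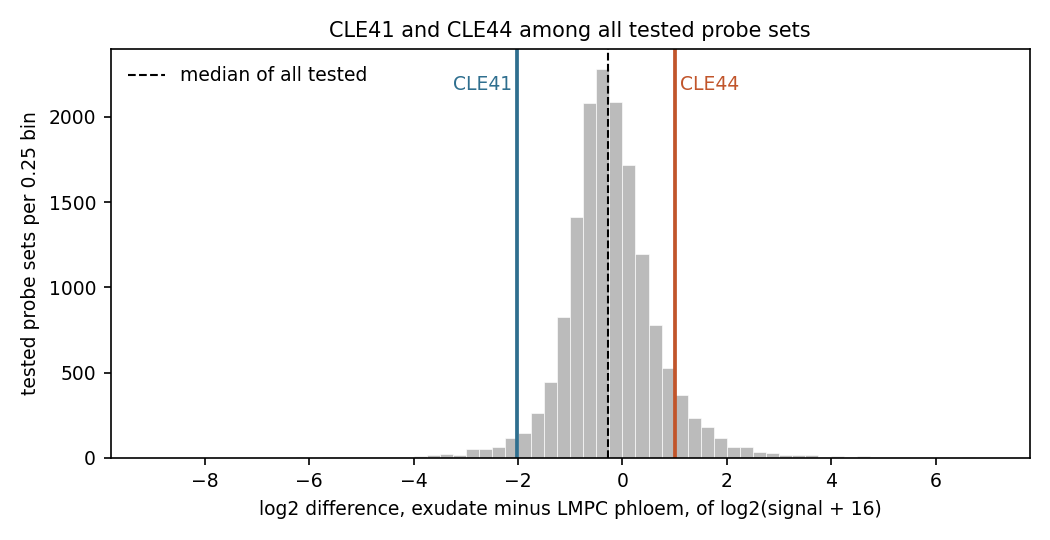
Number of tested probe sets (vertical axis, bins of 0.25) by log2 difference, exudate minus LMPC phloem. CLE41 lies at -2.02 and CLE44 at +1.01, on either side of the median of -0.27 (dashed line).

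The opposed differences of both genes were also seen in their ranks within an array, which no array-wide factor can move. The share of an array's probe sets that lay below CLE41 was 68.1%, 87.1% and 87.3% on exudate arrays 1, 2 and 3, against 98.0%, 96.1% and 97.1% on LMPC arrays 1, 2 and 3. For CLE44 that share was 94.5%, 90.7% and 92.0% on exudate arrays 1, 2 and 3, against 82.8%, 66.5% and 66.4% on LMPC arrays 1, 2 and 3. The ranks of the groups thus did not overlap for either gene, and the direction matched that of the signals. Ranks are taken from the same signals and are no separate evidence. How many probe sets have ranks that do not overlap was not computed. On the signals, 27.8% of tested probe sets had all exudate arrays lower and 12.1% all exudate arrays higher. The mean rank differed by -16.3 percentage points for CLE41 and by +20.5 for CLE44 (exact two-sided permutation test, p = 0.1 for each, the smallest that 3 against 3 arrays allow).

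**Figure D3:**
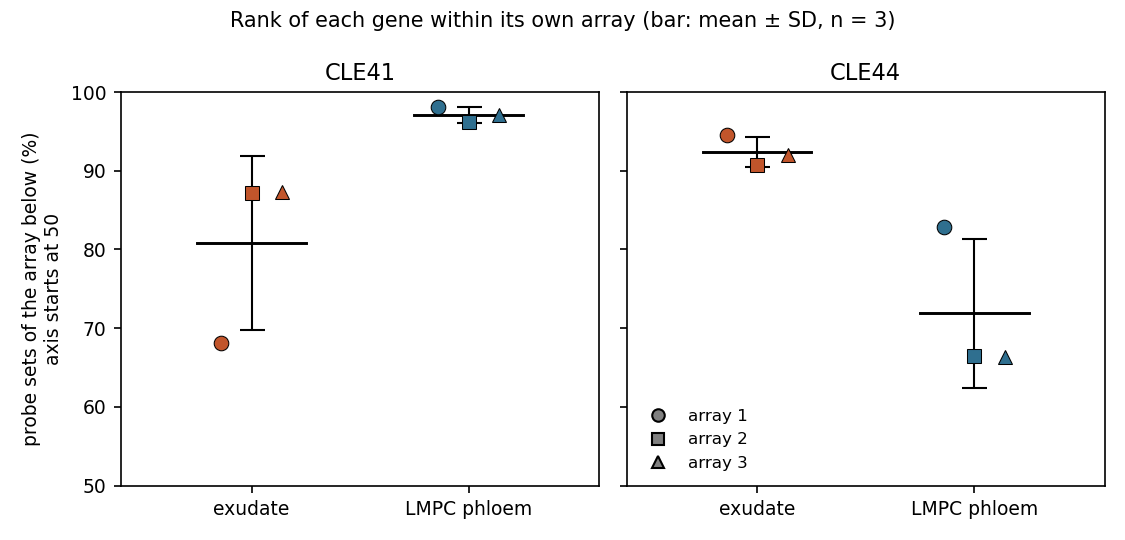
Percentage of the probe sets of an array that lie below CLE41 (left) and CLE44 (right), on an axis that starts at 50%. CLE41 ranks lower on every exudate array (68.1% to 87.3%) than on any LMPC array, and CLE44 ranks higher on every exudate array (90.7% to 94.5%).

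The ratio of both signals on the same array is free of the array's overall brightness, apart from the 16 added before the log. The height of this ratio compares different probe sets and was not read, only its change between groups. The signal of CLE44 over that of CLE41 was 5.23, 1.29 and 1.59 on exudate arrays 1, 2 and 3, against 0.146, 0.167 and 0.143 on LMPC arrays 1, 2 and 3. The ratio was nearly constant over the LMPC arrays although both signals were highest on LMPC array 1, and it was most variable in exudate, where array 1 had the lowest CLE41 signal beside a CLE44 signal near the top of its group. On the scale of log2(signal + 16) the ratio averaged 0.83 ± 0.73 in exudate and -2.2 ± 0.21 in LMPC phloem. The difference of 3.03 (SE 0.44), 8.16-fold for signals with 16 added, reached the smallest p that 3 against 3 arrays allow (exact two-sided permutation test, p = 0.1). This test compares the pair with each other and does not tell which of them differed. Its difference combines those of CLE41 and CLE44 given above and is no separate result.

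Scaling moved the size of both differences. The spike-in controls of hybridization had a geometric mean signal of 536, 350 and 702 on exudate arrays 1, 2 and 3, against 1568, 1365 and 1051 on LMPC arrays 1, 2 and 3. After scaling to these controls CLE41 differed by -0.91 (limma adjusted p = 0.0663) and was not called, and CLE44 by +2.0 (limma adjusted p = 3.73e-05). After quantile normalization, median centring, scaling to a common trimmed mean or centring on reference genes, CLE41 differed by -1.96 to -1.73 and CLE44 by +1.07 to +1.3, and both were called. The 2 reference genes that the tables carried under their listed name differed in opposite directions, and the centring was not limited to them. GAPC2 (AT1G13440), a glycolytic dehydrogenase, was higher by 1.74 (limma adjusted p = 0.00069). PEX4 (AT5G25760), a ubiquitin-conjugating enzyme of the peroxisome, fell by 1.84 (limma adjusted p = 0.00348). PEX4 was not called after scaling to the spike-ins (-0.98, limma adjusted p = 0.08) or with no filter on dim probe sets (limma adjusted p = 0.0549).

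**Figure D4:**
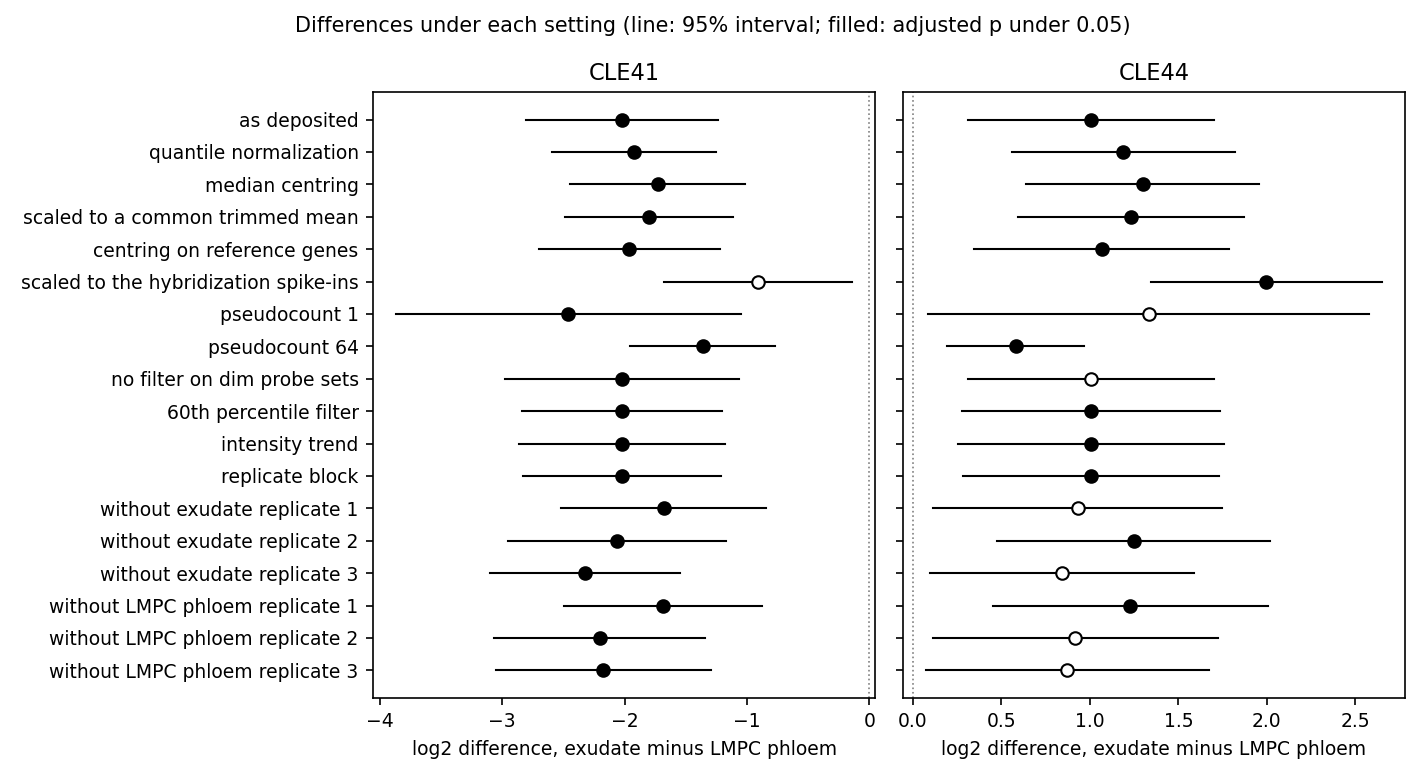
Log2 differences, exudate minus LMPC phloem, of CLE41 (left) and CLE44 (right) under each setting, with 95% intervals; filled circles have an adjusted p under 0.05. All differences of CLE41 are negative and all of CLE44 positive, CLE41 loses its call after scaling to the spike-ins, and CLE44 loses it with a pseudocount of 1, with no filter and without 4 of the 6 arrays in turn.

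Within a group the genes varied from array to array. The SD of CLE41 was 59.0% of its mean in exudate and 46.9% in LMPC phloem, and that of CLE44 was 32.7% in exudate and 43.1% in LMPC phloem. In LMPC phloem both genes were brightest on array 1, with CLE41 at 20.2 times the median signal of its array there, against 10.1 and 11.6 times on arrays 2 and 3. In exudate both were brightest on array 3, while the dimmest array was array 1 for CLE41 and array 2 for CLE44. Relative to the median signal of each array, CLE44 was almost equal on exudate arrays 1 and 3, at 9.75 and 9.76 times, and CLE41 was at 1.87 and 6.16 times on the same arrays.

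Of the 32 genes listed for the CLE family, 7 had a probe set of their own under a name the tables carried, and the other 25 were not analysed here, among them CLE42, whose peptide is close to TDIF. Of the 7, 3 were tested, with 1 called higher in exudate (CLE44) and 2 called lower (CLE41 and CLE26), beside 8.51% called higher and 16.6% called lower over all tested probe sets. CLE26 (AT1G69970), which encodes a peptide known to act on the formation of root protophloem, had signals of 1.6, 1.8 and 1.2 on exudate arrays 1, 2 and 3, against 42.0, 32.1 and 52.8 on LMPC arrays 1, 2 and 3. Its exudate signals lay under the 40th percentile of their arrays (5.9 to 6.7), so that it entered the test through the LMPC arrays alone and had to differ. The difference of CLE26 was -1.72 (SE 0.303, limma adjusted p = 0.000381), and it is given as a description for that reason.

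The other 4 CLE genes were too dim to be tested. CLE27 (AT3G25905) ranged from 0.7 to 2.0 in exudate and from 2.18 to 17.3 in LMPC phloem. CLE40 (AT5G12990), whose peptide acts on the stem cells of the root tip, ranged from 4.2 to 10.9 in exudate and from 9.04 to 9.67 in LMPC phloem. CLE21 (AT5G64800) ranged from 0.3 to 15.3 in exudate and from 2.4 to 9.11 in LMPC phloem. CLV3 (AT2G27250), the stem cell signal of the shoot apex, ranged from 0.8 to 2.7 in exudate and from 0.95 to 2.51 in LMPC phloem. The groups overlapped for CLE40, CLE21 and CLV3, and CLE27 was dim on all exudate arrays and on LMPC array 1.

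**Figure D5:**
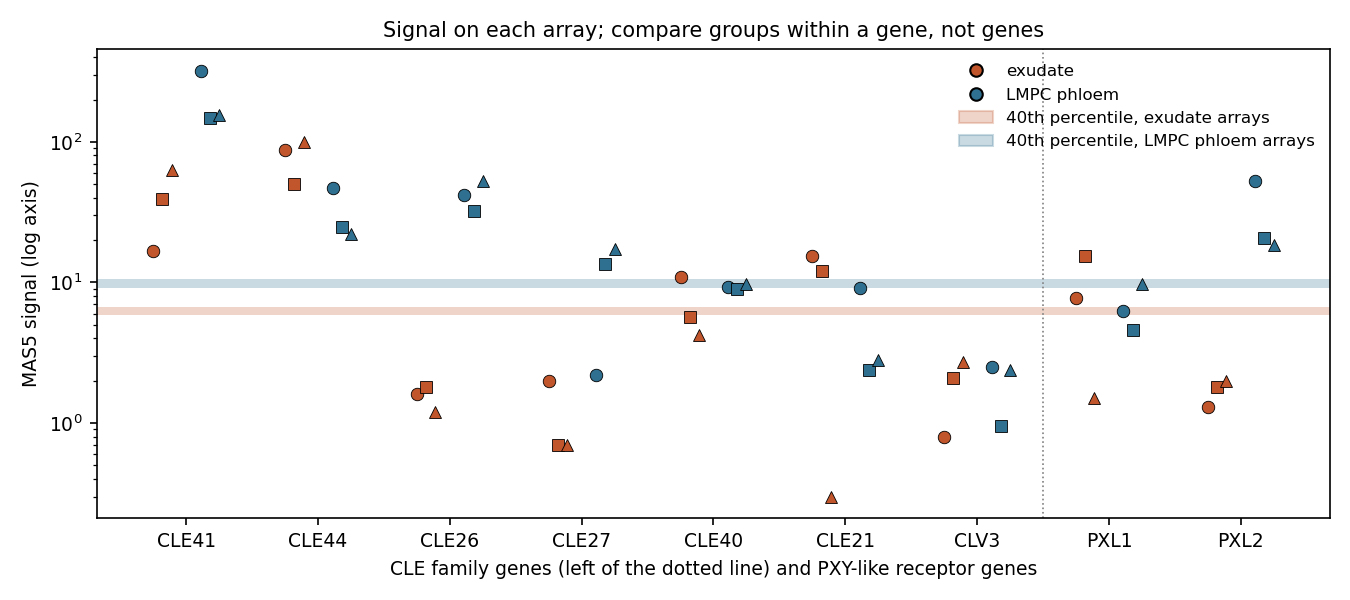
MAS5 signal (log axis) of 7 CLE family genes and of PXL1 and PXL2 on each exudate and LMPC phloem array, with bands for the range of the 40th percentile of the arrays of each group. CLE41 and CLE44 lie above both bands on all 6 arrays, and CLE26 and PXL2 lie below the exudate band on all exudate arrays.

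On the receiving side, 2 of 9 listed receptors and co-receptors of TDIF had a probe set of their own, both for the closest relatives of PXY. PXL2 (AT4G28650) had signals of 1.3, 1.8 and 2.0 on exudate arrays 1, 2 and 3, against 52.5, 20.8 and 18.4 on LMPC arrays 1, 2 and 3. It was low on each exudate array and entered the test through the LMPC arrays alone, as CLE26 did, with a difference of -1.32 (SE 0.329, limma adjusted p = 0.00632) that was not called after scaling to the spike-ins (-0.83, adjusted p = 0.0522). PXL1 (AT1G08590) had signals of 7.8, 15.5 and 1.5 on exudate arrays 1, 2 and 3, against 6.28, 4.56 and 9.78 on LMPC arrays 1, 2 and 3. Its groups overlapped, and its difference of 0.05 had an adjusted p = 0.927 in limma. Neither PXY nor any of the 13 listed signalling components and targets, WOX4 among them, was analysed here, and the same holds for the 11 listed receptors of other CLE peptides. Of 24 listed cambium regulators 2 were tested and neither was called on the signals as deposited. Over all tested probe sets 8.51% were called higher and 16.6% lower in exudate, so most were not called either. MOL1 (AT5G51350), a receptor-like kinase gene also on that list, was too dim to test. It ranged from 0.7 to 2.5 in exudate and from 6.47 to 44.0 in LMPC phloem, and its groups did not overlap. Among the tested probe sets 27.8% had all exudate arrays lower than the LMPC arrays. PHV was called higher after scaling to the spike-ins (+1.07, limma adjusted p = 0.0159). The tested genes were PHV (AT1G30490), a class III HD-ZIP transcription factor, with 32.9 ± 16.0 in exudate against 25.3 ± 13.8 in LMPC phloem, and LHW (AT2G27230), a bHLH factor of vascular cell division, with 15.4 ± 12.7 in exudate against 36.0 ± 19.2.

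Some of the few tested markers of cell types differed between the groups, in both directions. Of 11 listed photosynthesis genes of mesophyll 3 were tested, and all 3 were called higher in exudate, beside 8.51% of all tested probe sets. Their summed signal was 924 to 1805 on exudate arrays and 183 to 745 on LMPC arrays. LHCB4.2 (AT3G08940), an antenna protein of photosystem II, had 518 ± 218 in exudate against 93.4 ± 63.1 in LMPC phloem (+2.37, limma adjusted p = 0.000373), and LHCB4.1 and RCA, Rubisco activase, were higher by 1.33 and 1.01. The groups overlapped for LHCB4.1 and RCA but not for LHCB4.2. LHCB4.1 had 489 on LMPC array 1 against 404 on exudate array 1, and RCA had 96.0 against 92.9 on the same arrays. The call of RCA was lost under 10 of 17 alternatives and that of LHCB4.1 under 6. LHCB4.3, an antenna gene of the same family that was not on the list, lay the other way, at 12.1 to 24.7 in exudate and 31.9 to 57.1 in LMPC phloem, with a difference of -0.74 that was not called (limma adjusted p = 0.0935). Of 24 listed phloem markers 2 had a probe set and 1 was tested, the sucrose exporter gene SWEET11 (AT3G48740). Its signals were 8.9, 25.8 and 15.5 on exudate arrays 1, 2 and 3, against 75.4, 36.9 and 61.1 on LMPC arrays 1, 2 and 3. SWEET11 fell by 1.17 (limma adjusted p = 0.014), the direction of CLE41. OPS, a membrane protein of developing sieve elements, was too dim to test, at 0.6 to 4.9 in exudate and 2.01 to 23.4 in LMPC phloem. The xylan synthesis gene GUT2 (AT1G27440) was the 1 tested of 15 xylem markers and fell by 1.09 (limma adjusted p = 0.0156), with signals of 16.0 to 33.5 in exudate against 64.9 to 80.6 in LMPC phloem. The call of SWEET11 was lost under 5 of 17 alternatives and that of GUT2 under 4, for both with median centring (-0.88 and -0.8), with a pseudocount of 1 (-1.79 and -1.48) and after scaling to the spike-ins (-0.27 and -0.12). SWEET11 also lost it without exudate array 1 or LMPC array 1 (limma adjusted p = 0.0778 and 0.066), and GUT2 without exudate array 2 (limma adjusted p = 0.0814). FAMA, the single measured gene of 7 epidermis and guard cell markers, ranged from 0.9 to 11.6 in exudate and from 10.8 to 28.9 in LMPC phloem and was not called. The part of these cell types in the differences of CLE41 and CLE44 was not tested.

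In control transcripts the ratio of 3' to 5' signal differed between the groups for actin and GAPDH, in opposite directions, and overlapped for ubiquitin. The 3' over 5' signal ratio of actin, which rises as RNA or cDNA is shortened from its 5' end, was 12.5 to 73.4 on exudate arrays and 4.87 to 6.63 on LMPC arrays, that of GAPDH 5.99 to 34.7 on exudate arrays and 36.8 to 48.6 on LMPC arrays, and that of ubiquitin 6.24 to 8.94 on exudate arrays and 8.62 to 10.5 on LMPC arrays. The median signal was 8.9 to 10.3 on exudate arrays and 13.5 to 15.9 on LMPC arrays. The part of transcript shortening in the differences of CLE41 and CLE44 was not tested.

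The genes most like each member over the 6 arrays were taken from 1161 tested genes with a symbol, by Pearson's r of log2(signal + 16). With 3 arrays in each of 2 separate groups, r mostly follows the difference between the groups, and it is given as a description. For CLE41 they were RALFL24 (AT3G23805, a RALF-like peptide gene, r = 0.993), LCB2 (AT5G23670, a serine palmitoyltransferase subunit of sphingolipid synthesis, 0.988), TRM31 (AT5G58630, 0.987), LHCB4.3 (AT2G40100, a photosystem II antenna protein, 0.986) and DME (AT5G04560, a DNA glycosylase of DNA demethylation, 0.981). RALFL24 had signals of 1.3, 8.6 and 20.5 on exudate arrays 1, 2 and 3, against 69.4, 36.8 and 34.4 on LMPC arrays 1, 2 and 3, which is the order of the arrays for CLE41 within exudate. For CLE44 they were 2A6 (AT1G03410, r = 0.991), nad9 (a subunit of respiratory complex I encoded in the mitochondrial genome, 0.986), ACLA-3 (AT1G09430, an ATP-citrate lyase subunit, 0.985), PMEPCRF (AT5G53370, a pectin methylesterase, 0.981) and ALDH2C4 (AT3G24503, an aldehyde dehydrogenase, 0.979). 2A6 had signals of 52.2, 24.2 and 54.4 on exudate arrays 1, 2 and 3, against 26.2, 10.9 and 5.81 on LMPC arrays 1, 2 and 3, the same order of arrays as CLE44 within each group, although its groups overlapped. An r above 0.9 was reached by 123 of the 1161 genes with CLE41 and by 44 with CLE44. No gene was among the 5 of both, which follows from the opposite differences of CLE41 and CLE44 and is no separate result.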

How the data were processed

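The authors deposited 1 intensity per probe set and array, a linear MAS5 signal; MAS5 is named, with no version, per the submitters' processing notes. No scaling target, background setting or genome build is given in the sources used here. The trimmed mean signal was 17.4 to 27.3 on exudate arrays and 22.3 to 28.0 on LMPC arrays, so no common target was seen, and exudate signals were written with fewer decimals than LMPC signals. Whether the groups were exported separately was not tested. No detection calls entered the analysis. The number of arrays, 3 per group, limits the precision. Groups came from the sample titles, although the extract protocol of the LMPC samples speaks of exudates. Probe sets were named through the probe table, 13513 with 1 gene and 503 with several, which were not named, and through RefSeq genes of TAIR10.1. The 155 list entries had 27 with a probe set. Of these, 6 were left out of the counts and the named genes because the tables did not carry the listed name for that locus. Centring on reference genes did not apply this rule and used every tested reference entry with a probe set, not GAPC2 and PEX4 alone.

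Signals were tested as log2(signal + 16) with limma 3.58.1 in R 4.3.3 (lmFit, eBayes, Benjamini-Hochberg adjustment over all tested probe sets, threshold 0.05), without normalization, covariate or the 64 control probe sets. The fit was tested on simulated data. The members, the gene lists and the tests were chosen with earlier results of these data known. Named were CLE41 and CLE44, tested members of the CLE and TDIF lists, called members of the other lists and the 5 genes most alike by Pearson's r. Dim members, LHCB4.3, PHV, LHW, OPS and FAMA were named after their values were seen. Alternatives were 5 scalings, pseudocounts of 1 and 64, other filters, an intensity trend, the replicate number as a block and each array left out. Ranks within an array were added after seeing the data. For ratios and ranks the test was an exact two-sided permutation of the arrays.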

Additional observations from a re-analysis of the deposited data

How the results depend on the processing

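CLE41 remained lower in exudate under all 17 alternatives (-2.46 to -0.91) and called under 16, the exception being scaling to the hybridization spike-ins (-0.91). CLE44 remained higher under all 17 (0.58 to 2.0) and called under 11. It was not called with a pseudocount of 1 (+1.33, limma adjusted p = 0.12), with no filter on dim probe sets (+1.01, 0.0638) or without 4 of the 6 arrays in turn (0.84 to 1.25 over all 6). The difference of the within-array ratio was 3.79 with a pseudocount of 1, 1.94 with a pseudocount of 64 and 2.61 to 3.31 with 1 array left out, and positive in all 14 alternatives. Over all tested probe sets 3853 were called, and 2359 to 3294 with 1 array left out, the lowest without exudate array 1. Calls higher in exudate made up 33.8% of all calls as deposited, 51.0% after quantile normalization, 59.5% after median centring, 47.8% after scaling to a trimmed mean, 22.1% without exudate array 3, 43.2% without LMPC array 1 and 88.5% after scaling to the spike-ins, which moved the median difference to 0.42. Relative to that median CLE41 stood at -1.33 and CLE44 at +1.58. With the replicate block CLE41 (-2.02) and CLE44 (+1.01, limma adjusted p = 0.0405) kept their calls. Same-numbered samples did not deviate together (correlations -0.074 to -0.00437). With 3 arrays per group this cannot show whether they shared plants or a day, and the titles only number the samples. PXL2 was not called after scaling to the spike-ins (-0.83), and PHV was called higher there (+1.07). Of the 5 genes most like CLE41, 2 were still among the 5 after quantile normalization, and of those most like CLE44, 1 after scaling to the spike-ins. The causes were not tested.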
